A study of Mus musculus with 9 samples.

Results

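The Ikaros and RUNX transcription factor families were examined in dendritic cells (DC) of the mouse spleen. The 8 genes were chosen by name in the table of read counts, and comprise Ikzf1, Ikzf2, Ikzf3 and Ikzf5 of the Ikaros family, Runx1, Runx2 and Runx3 of the RUNX family, and Cbfb, which encodes the shared partner of the RUNX proteins. All 8 were found among the 39179 genes listed, and all 8 passed the filter on low counts that left 13819 genes to test. RNA was sequenced from 3 subsets sorted from spleens of untreated C57BL/6J mice of 6 to 12 weeks of age. These were cDC1 (CD11c high, CD8+, CD11b-), cDC2 (CD11c high, CD8-, CD11b+) and pDC (CD11c intermediate, CD317 high, CD11b-). Each subset has 3 libraries, each made from a pool of spleens of 15 to 17 mice, so that single animals cannot be seen. Libraries with the same replicate number carry the same date code in all 3 subsets and are called a sort here.

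Ikaros proteins bind DNA through zinc fingers and recruit chromatin complexes, among them the NuRD deacetylase complex, to regulate genes of lymphoid development. Ikaros itself, encoded by Ikzf1, is known to be needed for pDC to form. RUNX proteins bind DNA through the Runt domain, and the CBFβ protein, encoded by Cbfb, does not touch DNA but strengthens that binding. In DC, Runx2 is known for its part in the maturation of pDC and their exit from bone marrow, and Runx3 for the upkeep of Esam-expressing cDC2 of the spleen.

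Counts per library ranged from 15806597 to 32453789, and the third sort had the lowest total in every subset. The floor, set at 3 counts, was 0.0924 to 0.190 CPM per library (each count divided by the total of its library), which covers counting error only. Levels are given as CPM after scaling of libraries by TMM factors. Subset markers followed the labels, with summed pDC markers (Bst2, Siglech, Ccr9, Ly6d, Tcf4) between 10258 and 11319 CPM in pDC and at most 214 CPM elsewhere. The 5 cDC1 markers summed to between 3445 and 3816 CPM in cDC1 and at most 698 CPM elsewhere. The 5 cDC2 markers reached 1760 to 1912 CPM in cDC2 and 1838 to 2003 CPM in pDC, where Cd4 and Sirpa made up most of the sum, and 94.6 to 158 CPM in cDC1. Of other cells, T cell markers summed to at most 7.46 CPM, NK cell markers to between 9.72 and 89.1 CPM, erythroid markers to between 14.9 and 28.1 CPM and neutrophil markers to between 4.26 and 57.3 CPM. Macrophage markers summed to between 18.2 and 224 CPM. The B cell list was at 30.8 to 34.5 CPM in cDC2, 87.6 to 95.2 CPM in cDC1 and 223 to 337 CPM in pDC, with Ebf1 at or under the floor in every library. Plasma cell markers summed to between 44.4 and 50.7 CPM in pDC and at most 8.66 CPM elsewhere. Sdc1 alone was at 49.5, 47.6 and 44.1 CPM of these pDC sums. Prdm1 went the other way, with a mean of 0.513 CPM in pDC and 6.49 CPM in cDC2, and Tnfrsf17 had a mean of 0.560 CPM in pDC. The third sort stood apart: 17.3% of genes tested were higher there than in both other sorts in all 3 subsets, and 19.3% were lower. In these bulk libraries, fewer cells that express a gene and less RNA per cell cannot be told apart.

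Of the RUNX genes, Runx2 was found mainly in pDC. Its TMM-normalized CPM was 547, 618 and 625 in pDC replicates 1, 2 and 3. In cDC2 it was 26.3, 30.4 and 24.0 CPM, and in cDC1 16.5, 15.2 and 15.2 CPM. The 3 subsets did not overlap, and the lowest pDC library lay far above the highest cDC library. Means were 597 ± 43.0 CPM in pDC, 26.9 ± 3.27 in cDC2 and 15.6 ± 0.755 in cDC1 (SD, n = 3 each). Runx2 was 38.2-fold higher in pDC than in cDC1, a log2 fold change of 5.25 ± 0.132 (SE), with an adjusted p of 2.76e-08 (quasi-likelihood test of edgeR, Benjamini-Hochberg adjustment). Against cDC2 it was 22.2-fold higher, with a log2 fold change of 4.47 ± 0.127 and an adjusted p of 4.46e-08 in the same edgeR fit. Of the 13819 genes tested, 321 had a larger log2 fold change than Runx2 in pDC against cDC1 and 328 in pDC against cDC2. Runx2 was also higher in cDC2 than in cDC1, by 0.78 ± 0.114 on the log2 scale (edgeR adjusted p = 0.000783). The gene lies at chr17:44495987-44814797 on the minus strand (GRCm38), and an antisense gene, Runx2os1, covers 5.87% of its exon bases.

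Runx3, known from CD8 T cells and NK cells, had another order. Its level was 133, 139 and 113 CPM in cDC2, 99.1, 90.5 and 91.4 CPM in pDC, and 66.2, 66.6 and 47.9 CPM in cDC1. The subsets did not overlap, with cDC2 highest and cDC1 lowest. The rise from cDC1 to cDC2 was 1.09 ± 0.146 on the log2 scale (edgeR adjusted p = 0.000455), and pDC exceeded cDC1 by 0.64 ± 0.145 (edgeR adjusted p = 0.00490). Between the upper pair, Runx3 was lower in pDC than in cDC2, with a log2 fold change of -0.46 ± 0.145 and an edgeR adjusted p of 0.0266. It was lower in pDC in all 3 sorts, but that call was lost without cDC2 replicate 1 or 2 or pDC replicate 2 or 3, where the edgeR adjusted p was 0.0823, 0.0976, 0.0758 and 0.0598. Runx3 lies at chr4:135120652-135177990 on the plus strand.

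Runx1, which is needed for blood stem cells to form in the embryo, did not pass the test in any comparison. It stood at 48.8, 54.2 and 59.7 CPM in cDC1, at 43.7, 49.8 and 64.0 CPM in cDC2 and at 39.0, 36.1 and 70.5 CPM in pDC. The ranges overlapped, and the third library was the highest in every subset. Log2 fold changes were -0.16 in pDC against cDC1, -0.12 in pDC against cDC2 and -0.05 in cDC2 against cDC1, with edgeR adjusted p-values of 0.629, 0.742 and 0.928. Sorts 1 and 2 had less Runx1 in pDC than in either cDC subset, and sort 3 had more. With the third sort left out, Runx1 was lower in pDC, with log2 fold changes of -0.49 against cDC1 (edgeR adjusted p = 0.00470) and -0.32 against cDC2 (edgeR adjusted p = 0.0291). Leaving out pDC replicate 3 alone gave -0.53 (edgeR adjusted p = 0.0303) and -0.48 (edgeR adjusted p = 0.0461). Runx1 lies at chr16:92601466-92826149 on the minus strand.

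In pDC, where Runx2 was highest, Cbfb was lowest. It was at 118, 108 and 192 CPM in pDC, 188, 200.3 and 299.9 CPM in cDC1, and 229, 248 and 384 CPM in cDC2. In each sort the order was the same, with pDC lowest and cDC2 highest, while the third library was the highest in every subset. Cbfb was lower in pDC than in cDC2, with a log2 fold change of -1.04 ± 0.282 and an edgeR adjusted p of 0.0125. Against cDC1 the log2 fold change was -0.72 ± 0.280 and did not pass (edgeR adjusted p = 0.0579). With the replicate block, which compares libraries of the same sort, it passed at -0.73 (edgeR adjusted p = 2.53e-05). It also passed without cDC2 replicate 3 (-0.76, edgeR adjusted p = 0.0330) or without pDC replicate 3 (-1.02, edgeR adjusted p = 0.0120), and with the third sort left out (-0.81, edgeR adjusted p = 0.000250). With all libraries and no block, it passed with no filter (edgeR adjusted p = 0.0335), limma-voom (adjusted p = 0.0432) and DESeq2 (adjusted p = 0.0349). The difference of 0.32 ± 0.279 between cDC2 and cDC1 passed only with the block (edgeR adjusted p = 0.475 without it and 0.00742 with it). Cbfb lies at chr8:105170674-105217989 on the plus strand.

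**Figure D1:**
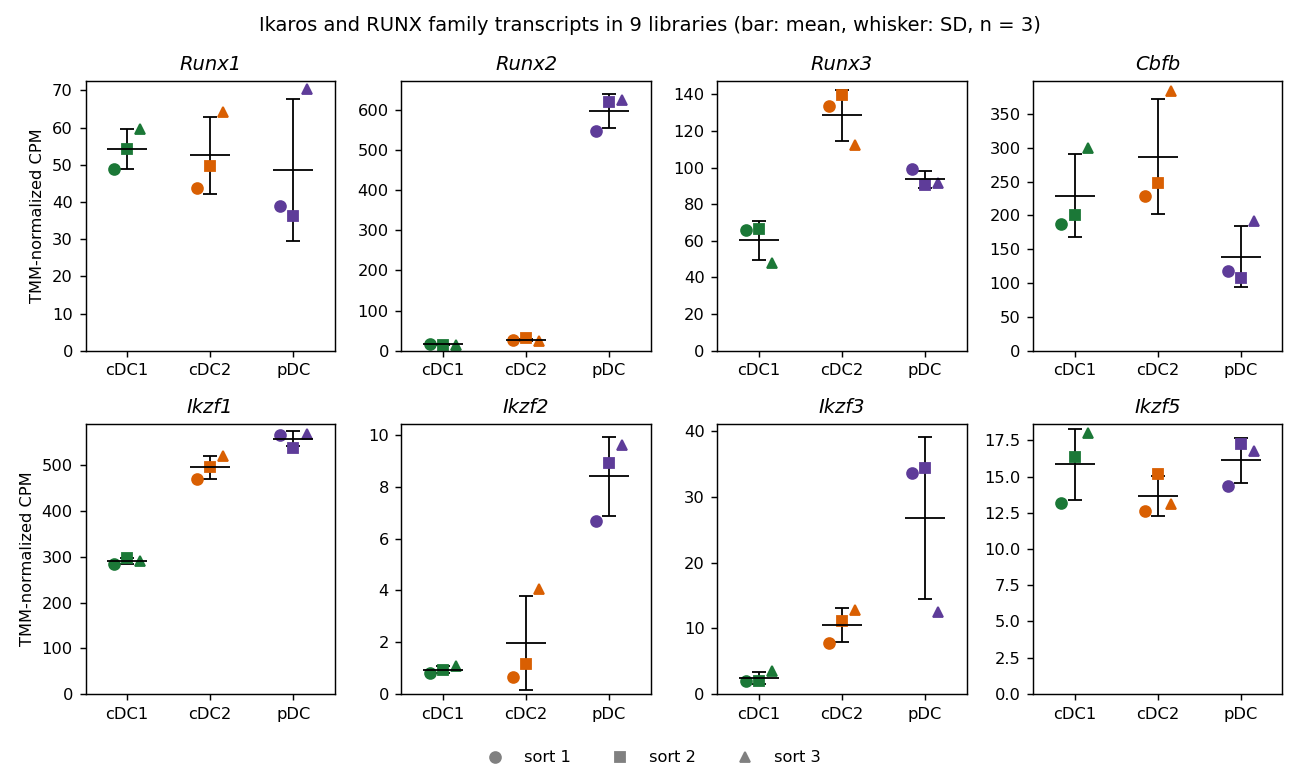
TMM-normalized CPM (vertical axes, each from 0) of the 8 genes in cDC1, cDC2 and pDC (horizontal axes). Points are libraries with a shape for each sort, bars are means and whiskers SD (n = 3). Runx2 lies between 547 and 625 CPM in pDC and at most at 30.4 CPM elsewhere, Runx3 is highest in cDC2, and Cbfb is highest in the third sort of every subset.

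The make-up of the RUNX family was compared on levels divided by the exon length of each gene (CPM per kb of exon), which allows genes to be set beside each other. In pDC, Runx2 made up 74.7% ± 1.99 (SD, n = 3) of the sum of the 3 RUNX genes, Runx3 20.8% ± 2.18 and Runx1 4.43% ± 1.54. In cDC2, Runx3 held 77.5% ± 3.37, Runx1 13.3% ± 3.56 and Runx2 9.18% ± 0.462. In cDC1 the shares were 65.4% ± 5.62 for Runx3, 24.9% ± 4.95 for Runx1 and 9.71% ± 0.878 for Runx2. Per kb of exon, Runx3 was the most abundant RUNX transcript in both cDC subsets and Runx2 in pDC, in all 3 libraries of each. Without division by length, the lead of Runx3 over Runx1 in cDC1 was smaller, at means of 60.2 ± 10.7 and 54.2 ± 5.42 CPM. In cDC1 replicate 3, Runx1 then exceeded Runx3, at 59.7 against 47.9 CPM. The RUNX sum was 18.3 ± 1.80 CPM per kb in cDC1, 33.1 ± 2.46 in cDC2 and 90.3 ± 4.97 in pDC, without overlap. The ratio of the partner Cbfb to the RUNX sum, both per kb, was 0.440 ± 0.125 in pDC, 2.53 ± 0.935 in cDC2 and 3.69 ± 1.40 in cDC1. All pDC libraries (0.340 to 0.581) lay below 1, and all cDC libraries (1.98 to 5.30) above it. Among 13683 genes ranked by level per kb, 67.7% stood above Runx2 in cDC1, 59.2% in cDC2 and 6.02% in pDC. For Cbfb these shares were 6.35%, 4.87% and 10.6%.

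The RUNX genes each have a distal and a proximal promoter, and their distal promoters are shown because they share a sequence that holds RUNX motifs. Promoter windows of 300 bases, 250 before and 50 after each listed start, were taken from RefSeq (GRCm38.p6), where 6 of the 8 genes had 9 windows among 32851. Ikzf2 and Ikzf3 were not matched. The windows of the upstream starts of Runx1, Runx2 and Runx3 hold an identical run of 18 bases. It is in capitals below, within stretches of 30 bases written 5′ to 3′, which lie at chr16:92826025-92826054 (Runx1, minus strand), chr17:44814583-44814612 (Runx2, minus strand) and chr4:135120503-135120532 (Runx3, plus strand):
Runx1: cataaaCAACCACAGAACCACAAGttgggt
Runx2: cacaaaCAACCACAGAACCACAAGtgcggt
Runx3: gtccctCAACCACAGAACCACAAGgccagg
The run begins at base 277 of the window in Runx1, at base 272 in Runx2 and at base 115 in Runx3. On either strand it was present in 4 windows of all (0.0122%), those of the 3 RUNX genes and that of Gm16225, whose window covers the Runx3 site itself. It holds the RUNX motif ACCACA at 2 places. This motif, on either strand, was present in 16.8% of all windows, and in none of the 6 other windows, which belong to the second starts of Runx1 and Runx3, to Ikzf1, Ikzf5 and Cbfb. The Ikaros core TGGGAA, on either strand, was present in 25.6% of all windows and, among the 9, only in the upstream window of Runx3. Counts per gene do not tell which promoter was in use, and the 3 genes that share the run had different orders across the subsets.

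**Figure D2:**
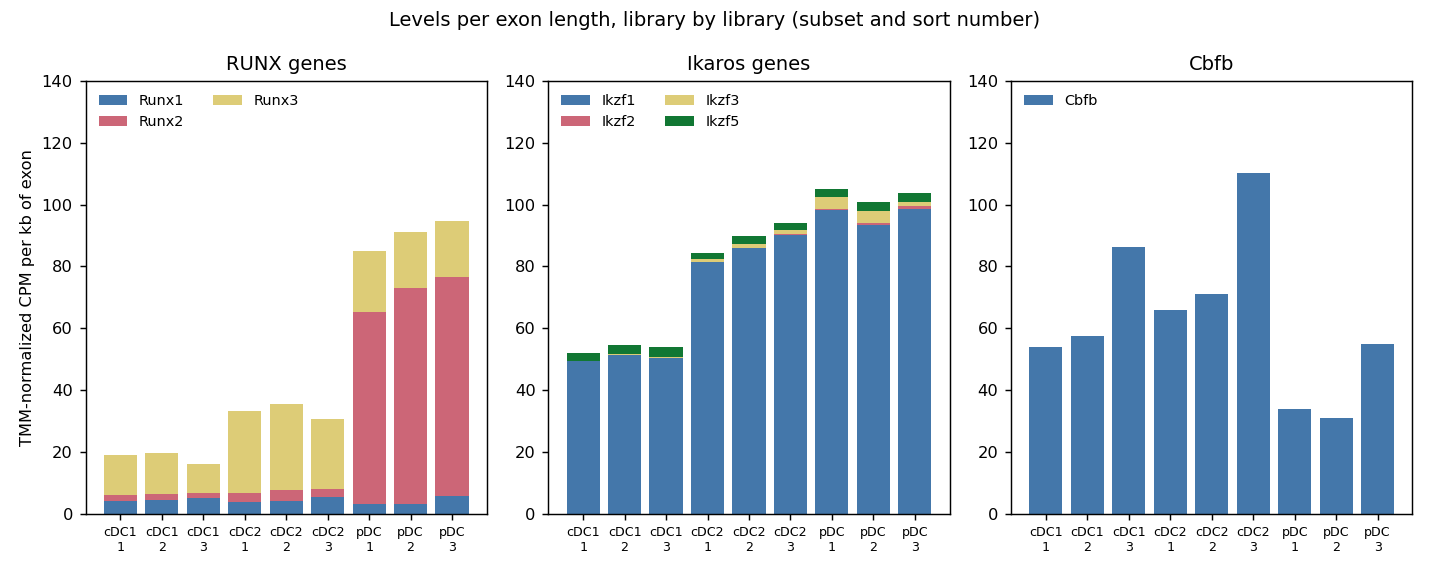
Level per exon length (TMM-normalized CPM per kb, vertical axes) in each of the 9 libraries, labelled by subset and sort, stacked for the RUNX genes and the Ikaros genes, and for Cbfb alone. The RUNX bars are mostly Runx3 in cDC1 and cDC2 and mostly Runx2 in pDC (74.7% of the sum), whereas Ikzf1 fills 92.4% or more of each Ikaros bar.

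Ikaros itself was the dominant transcript of its family in every subset. Ikzf1 was at 567, 539 and 569.8 CPM in pDC, at 470.1, 496 and 520.4 CPM in cDC2, and at 285, 296 and 291 CPM in cDC1. The subsets did not overlap, with little spread within each. Relative to cDC1, Ikzf1 was higher in pDC by 0.94 ± 0.0811 (edgeR adjusted p = 8.38e-06) and in cDC2 by 0.77 ± 0.0809 (edgeR adjusted p = 0.000103) on the log2 scale, or 1.92-fold and 1.70-fold. The smaller difference of 0.17 ± 0.0804 between pDC and cDC2 was seen in all 3 sorts but did not pass (edgeR adjusted p = 0.109), and passed with the replicate block (edgeR adjusted p = 0.0311). Per kb of exon, Ikzf1 made up 94.2% ± 0.872 of the 4 Ikaros genes in cDC1, 95.8% ± 0.410 in cDC2 and 93.6% ± 1.32 in pDC. Only 8.35%, 4.61% and 4.14% of 13683 genes had a higher level per kb in cDC1, cDC2 and pDC. Ikzf1 lies at chr11:11685003-11772926 on the plus strand.

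Helios, encoded by Ikzf2 and known from regulatory T cells, was scarce throughout. Its level was 6.69, 8.92 and 9.60 CPM in pDC and 0.801, 0.917 and 1.08 CPM in cDC1. The cDC2 libraries were at 0.669, 1.16 and 4.04 CPM, of which 1 lay just below and 1 just above the cDC1 range and the third stood alone. Ikzf2 was higher in pDC than in cDC1 by 3.17 ± 0.610 (edgeR adjusted p = 0.00182) and than in cDC2 by 2.13 ± 0.573 (edgeR adjusted p = 0.0122) on the log2 scale. Without cDC2 replicate 3, the latter was 3.19. The difference of 1.04 ± 0.598 between cDC2 and cDC1 did not pass (edgeR adjusted p = 0.261), and without cDC2 replicate 3 it was -0.05. NK cell markers (Ncr1, Klrb1c, Gzma, Prf1, Eomes, Klre1) moved with Ikzf2 in cDC2, where the list summed to 22.9, 37.5 and 89.1 CPM. In pDC, with more Ikzf2, the list summed to 19.1, 10.6 and 43.1 CPM, and in cDC1 to 14.0, 9.72 and 30.5 CPM. None of the 6 was at 0 in any library, and their part in the cDC2 values of Ikzf2 was not tested. Ikzf2 lies at chr1:69531214-69687245 on the minus strand.

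Aiolos, encoded by Ikzf3 and known from B cells and plasma cells, rose from cDC1 to cDC2 and pDC. It was at 1.93, 1.92 and 3.45 CPM in cDC1 and at 7.71, 11.1 and 12.8 CPM in cDC2. In pDC it was at 33.6 and 34.4 CPM in the first 2 sorts and at 12.5 CPM in the third, which lay within the cDC2 range. Ikzf3 was higher than in cDC1 both in pDC, by 3.49 ± 0.434 (edgeR adjusted p = 0.000106), and in cDC2, by 2.14 ± 0.420 (edgeR adjusted p = 0.00451). Between pDC and cDC2 it was higher in pDC by 1.35 ± 0.388 (edgeR adjusted p = 0.0167), in 2 of 3 sorts. With the third sort left out the value was 1.85. The call was lost without cDC2 replicate 1, pDC replicate 1 or pDC replicate 2, with edgeR adjusted p-values of 0.0680, 0.0610 and 0.0591. The B cell list in pDC, mostly Fcrla, was at 252, 223 and 337 CPM, highest in the library in which Ikzf3 was lowest. The plasma cell list in pDC, mostly Sdc1, was at 50.7, 49.4 and 44.4 CPM. The part of either list in Ikzf3 was not tested. Ikzf3 lies at chr11:98464902-98546031 on the minus strand.

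Pegasus, encoded by Ikzf5, varied little between subsets. Its level was 13.2, 16.3 and 18.0 CPM in cDC1, 12.6, 15.2 and 13.1 CPM in cDC2 and 14.3, 17.2 and 16.8 CPM in pDC. All 3 ranges overlapped, and no comparison passed, with log2 fold changes of 0.03 in pDC against cDC1, 0.24 in pDC against cDC2 and -0.21 in cDC2 against cDC1 (edgeR adjusted p = 0.911, 0.285 and 0.434). The gene lies at chr7:131388652-131410521 on the minus strand, and 81.3% of its exon bases are overlapped by Pstk on the opposite strand. Since the strand setting of the counting is not given in the sources used here, the level of Ikzf5 is uncertain. Eos, encoded by Ikzf4 and no member of the 8, had 3, 7 and 0 counts in cDC1, 38, 45 and 0 in cDC2, and 2, 4 and 0 in pDC. It did not pass the filter on low counts and was not tested, being listed at 0 in the third sort of all 3 subsets.

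Counted over the 8 genes, 5 were called in pDC against cDC1, all higher in pDC (Ikzf1, Ikzf2, Ikzf3, Runx2 and Runx3), where 48.6% of all genes tested were called and 24.3% were called as higher. In pDC against cDC2, 3 were higher in pDC (Ikzf2, Ikzf3 and Runx2) and 2 lower (Runx3 and Cbfb), against a background of 45.8% called, 22.5% as higher and 23.3% as lower. This count fell to 3 without cDC2 replicate 1 or without pDC replicate 2. In cDC2 against cDC1, 4 were called, all higher in cDC2 (Ikzf1, Ikzf3, Runx2 and Runx3), with 24.4% of all genes called and 12.7% called as higher. The ranges of the 3 and 3 libraries did not overlap for 5 of the 8 genes in pDC against cDC1 (58.6% of all genes tested), for 5 in pDC against cDC2 (56.1%) and for 4 in cDC2 against cDC1 (44.5%). These shares of members, and those called in either pDC comparison, were near those of all genes. Comparisons that have a subset in common share its libraries, so their values are not independent of each other.

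**Figure D3:**
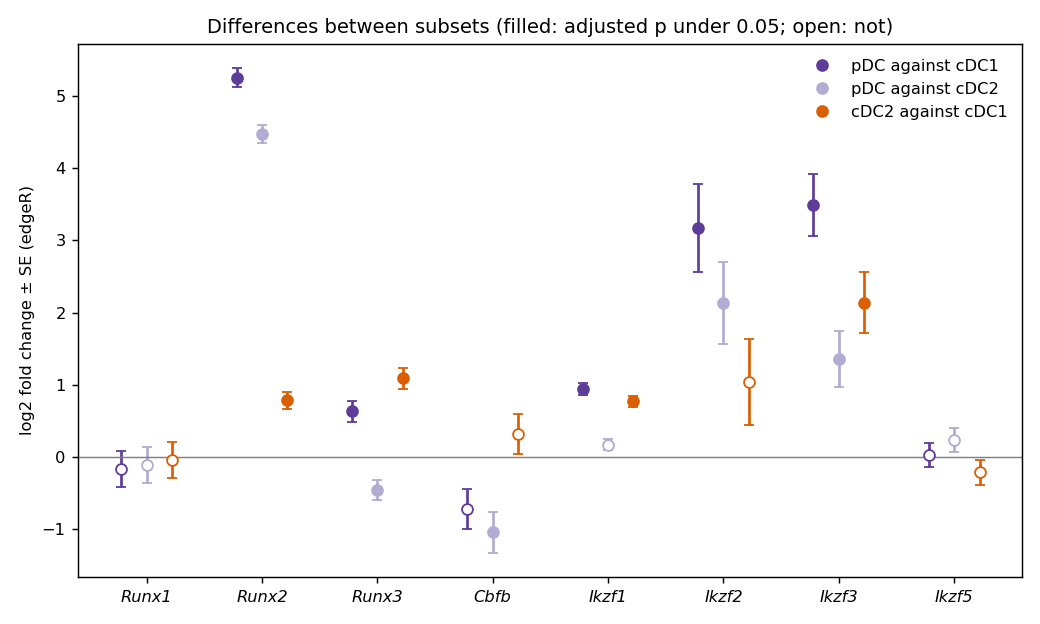
Log2 fold change ± SE from the edgeR fit (vertical axis) of each gene (horizontal axis) in the 3 comparisons. Filled points passed an adjusted p of 0.05. Runx2 stands highest, at 5.25 and 4.47 in the comparisons of pDC, and Runx1 and Ikzf5 lie near 0 in all 3.

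Within sorts, ratios were computed from log2 of CPM plus a pseudocount of 1, which understates the change of low genes. For pDC against cDC1, Runx2 gave 4.97, 5.25 and 5.27 in sorts 1, 2 and 3. Cbfb gave -0.66, -0.89 and -0.64 there. Of the 8 genes, Ikzf2, Runx1 and Cbfb were higher in the third sort than in both others in all 3 subsets and none was lower throughout, beside the 17.3% and 19.3% of all genes given above. For Cbfb the third sort exceeded the mean of the others by 0.63 in cDC1, 0.69 in cDC2 and 0.76 in pDC on this log2 scale. For Runx1 the excess was 0.21, 0.45 and 0.89. Ikzf3 differed in sign, with 0.61 in cDC1, 0.43 in cDC2 and -1.37 in pDC.

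**Figure D4:**
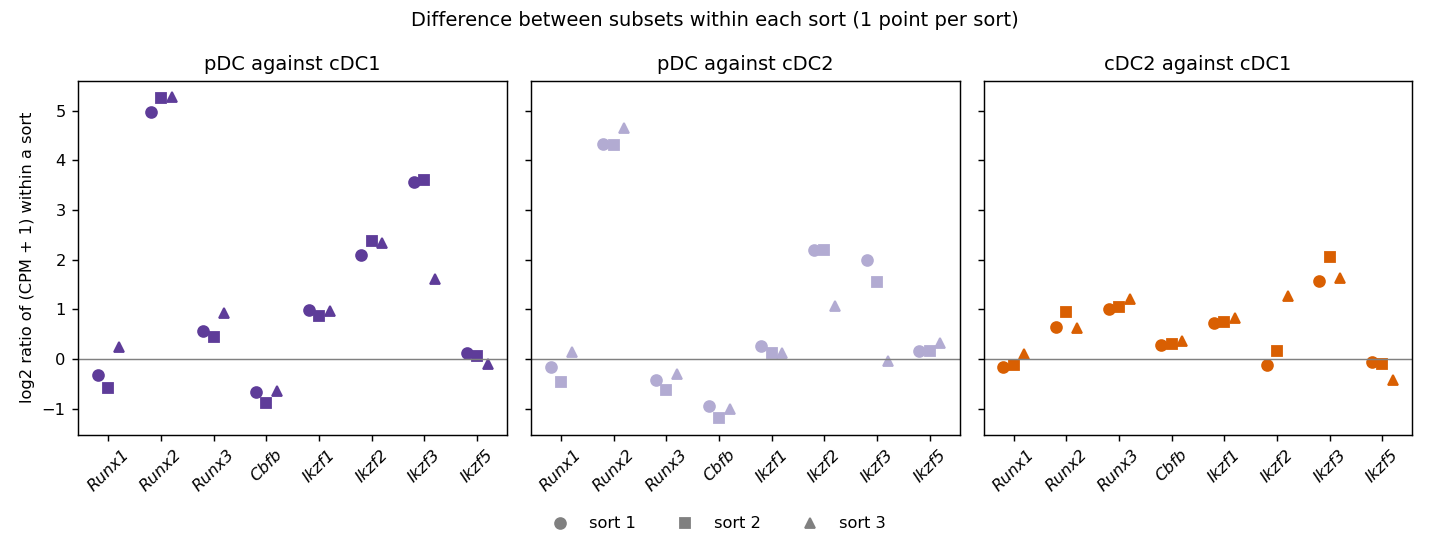
Log2 ratio of CPM + 1 between subsets within each sort (vertical axis) for each gene (horizontal axis), with a shape for each sort and a panel for each comparison. Points of Runx2 lie at 4.97, 5.25 and 5.27 in pDC against cDC1, and Runx1 in sort 3 lies above 0 in all 3 panels.

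Partners of these factors were followed as lists, chosen, like the target lists below, with earlier results of these data known. NuRD and other Ikaros corepressors comprised 17 genes, all tested. In pDC against cDC1, 4 were higher and 4 lower (47.1% called beside 48.6% of all genes, median log2 fold change 0.12, beside 0.02 over all genes tested). That count fell to 5 without cDC1 replicate 1 or 3 and to 4 without pDC replicate 2. In pDC against cDC2, 3 were higher and 6 lower (52.9% beside 45.8%, median -0.26 beside -0.01), and in cDC2 against cDC1, 2 were higher and 2 lower (23.5% beside 24.4%, median 0.11 beside 0.03). The last count was 7 with the replicate block and also with the third sort left out. Rbbp7, a histone-binding subunit of NuRD, fell from 405 ± 23.9 CPM in cDC1 and 311 ± 2.86 in cDC2 to 130.1 ± 9.21 in pDC (edgeR adjusted p = 5.92e-07 and 3.05e-06). Ctbp2, a corepressor that Ikaros binds, was at 3.00 ± 0.715 CPM in pDC, 10.5 ± 2.31 in cDC2 and 26.6 ± 1.28 in cDC1, and all 3 differences passed (edgeR adjusted p at most 0.00172). Its relative Ctbp1 had the opposite order, at 267 ± 21.03 CPM in pDC against 166 ± 11.3 in cDC1 (edgeR adjusted p = 0.000282) and 185 ± 8.44 in cDC2 (edgeR adjusted p = 0.00157). Mta3 and Mta2, scaffold subunits of NuRD, were highest in cDC2, at 128 ± 3.92 CPM against 74.9 ± 4.06 in cDC1 for Mta3 and at 368 ± 9.50 against 237 ± 3.18 for Mta2 (edgeR adjusted p = 0.000206 and 0.000259). Mta3 was lower in pDC than in cDC2, with a log2 fold change of -0.75 (edgeR adjusted p = 9.66e-05). Smaller differences, in pDC, were those of Mbd3 (0.29 against cDC1 and 0.51 against cDC2), Gatad2b (0.42 against cDC1), Sin3b (0.30 against cDC2) and the deacetylase gene Hdac2 (-0.57 against cDC1). In the third sort 6 of the 17 were lowest in all 3 subsets (Chd3, Chd4, Mbd3, Gatad2a, Gatad2b and Sin3a), beside 19.3% of all genes tested.

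Of 15 RUNX cofactors, 14 were tested. In pDC against cDC1, 4 were higher and 2 lower (42.9% called beside 48.6% of all genes, median 0.42 beside 0.02), and 11 were called with the replicate block and 12 with the third sort left out. In pDC against cDC2, 3 were higher and 2 lower (35.7% beside 45.8%, median 0.18 beside -0.01), and in cDC2 against cDC1, 1 was higher (7.14% beside 24.4%, median 0.22 beside 0.03), or 4 with the block. The pDC against cDC2 count was 3 without cDC2 replicate 2 or pDC replicate 1, and the cDC2 against cDC1 count was 2 without cDC2 replicate 3 or the third sort. Tle3, a Groucho corepressor that RUNX proteins bind, was at 220.2 ± 8.71 CPM in pDC, 107 ± 13.7 in cDC1 and 126 ± 17.2 in cDC2 (edgeR adjusted p = 0.000126 and 0.000713). Its relative Tle2 was low, at 2.30 ± 0.264 CPM in pDC and under the floor in cDC1 (edgeR adjusted p = 0.00280). With 1, 1 and 0 counts in cDC1 and 32, 12 and 0 in cDC2, Tle2 passed the filter only through pDC. This favours its call as higher in pDC, which the 42.9% includes. Tle1 was higher in pDC than in cDC2 by 0.65, and Aes, a short Groucho protein gene, rose in pDC by 0.55 and in cDC2 by 0.40 relative to cDC1. Cbfa2t3, which encodes the corepressor ETO2, was lower in pDC, at 94.1 ± 14.9 CPM against 178 ± 46.8 in cDC1 and 205 ± 35.7 in cDC2 (edgeR adjusted p = 0.00550 and 0.00196). Prmt1, a methyltransferase that acts on RUNX1, fell by 0.62 against cDC1 and by 0.33 against cDC2, and Hdac3 rose by 0.47 against cDC2. In the third sort 8 of the 14 were lowest in all 3 subsets, beside 19.3% of all genes tested.

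The cereblon ubiquitin ligase, through which thalidomide analogs degrade Ikaros and Aiolos, was followed with 5 genes. In each comparison 1 of the 5 was called (20%), beside 48.6%, 45.8% and 24.4% of all genes. The median log2 fold change was -0.07 in pDC against cDC1 (0.02 over all genes), -0.13 against cDC2 (-0.01) and -0.03 between the cDC subsets (0.03). These were Cul4b, lower in pDC at 23.9 ± 2.32 CPM against 35.5 ± 3.29 in cDC1 and 34.7 ± 5.25 in cDC2 (edgeR adjusted p = 0.00915 and 0.0128), and Crbn, the substrate receptor, at 36.5 ± 1.71 CPM in cDC2 against 27.5 ± 1.69 in cDC1 (edgeR adjusted p = 0.0202). The Crbn call was lost without cDC1 replicate 1 or 2 or cDC2 replicate 2 or 3. With the replicate block, 2 were called in pDC against cDC1 and 3 in cDC2 against cDC1, and the former was 2 also without cDC2 replicate 2 or 3 or with library size only.

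Of 12 genes known from lymphocytes as Ikaros targets, 10 were tested. As the list was chosen with earlier results of these data known, its shares called describe the listed genes only. In pDC against cDC1, 6 were higher and 3 lower (90% called beside 48.6% of all genes, median 2.98 beside 0.02). In pDC against cDC2, 5 were higher and 3 lower (80% beside 45.8%, median 1.83 beside -0.01), and in cDC2 against cDC1, 3 were higher and 1 lower (40% beside 24.4%, median 0.63 beside 0.03). Dntt, which encodes the terminal transferase of antigen receptor joining, was at 366 ± 12.6 CPM in pDC, 0.741 ± 0.446 in cDC1 and 1.19 ± 0.930 in cDC2 (edgeR adjusted p = 1.81e-06 and 2.32e-06). Il7r, the receptor chain for interleukin-7, was at 231 ± 15.5 CPM in pDC, 13.9 ± 2.37 in cDC2 and 5.88 ± 0.678 in cDC1 (edgeR adjusted p = 9.70e-08 for pDC against cDC2). Ets1, a lymphoid transcription factor, had the same order, at 224 ± 33.9, 21.3 ± 2.91 and 5.63 ± 0.277 CPM. The recombinase gene Rag1 was at 2.44 ± 0.456 CPM in pDC, with 1 count in cDC1 and 2 in cDC2 over 3 libraries each. Vpreb1 had 22, 19 and 42 counts in pDC, 3, 2 and 6 in cDC1 and 13, 8 and 0 in cDC2. Rag1 and Vpreb1 passed the filter on low counts only through pDC, which favours a call as higher there. The 90% includes both calls and the 80% that of Rag1. Lower in pDC were Hes1, a Notch target, at 0.863 ± 0.400 CPM against 17.4 ± 3.59 in cDC1 and 28.6 ± 4.61 in cDC2, Myc, at 1.98 ± 0.625 against 12.6 ± 1.40 and 19.4 ± 1.10, and Bcl6, at 17.8 ± 2.82 against 83.0 ± 6.12 and 68.5 ± 6.19. All 3 passed in both comparisons (edgeR adjusted p at most 1.32e-05). In cDC2 against cDC1, Cd79b was higher and Foxo1 lower, with log2 fold changes of 1.90 and -0.56.

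Of 14 genes known as RUNX targets, 12 were tested, with changes in both directions. This list too was chosen with earlier results known, and its shares called are a description. In pDC against cDC1, 4 were higher and 3 lower (58.3% called beside 48.6% of all genes, median 0.30 beside 0.02), in pDC against cDC2, 4 were higher and 6 lower (83.3% beside 45.8%, median -0.56 beside -0.01), and in cDC2 against cDC1, 7 were higher and 3 lower (83.3% beside 24.4%, median 0.80 beside 0.03). The last count fell to 6 without cDC1 replicate 2. Cd4, silenced by RUNX proteins in CD8 T cells, was at 1369 ± 73.1 CPM in pDC, 399 ± 20.1 in cDC2 and 39.3 ± 7.02 in cDC1. It is also a marker of part of the cDC2. Itgae, the integrin CD103, which RUNX3 activates in CD8 T cells, was at 1.04 ± 0.754 CPM in pDC and 4.90 ± 2.40 in cDC2, and reached 155 ± 22.4 in cDC1, where Runx3 was lowest (edgeR adjusted p = 2.29e-06 for pDC and 3.64e-05 for cDC2, each against cDC1). Ccr2 and Itgal were higher in pDC by 1.78 against cDC1 and by 1.48 against cDC2, respectively. Spi1, which encodes PU.1, was at 116.5 ± 11.4 CPM in pDC, 442 ± 13.5 in cDC1 and 577 ± 31.8 in cDC2. The myeloid genes Csf1r and Lyz2 were highest in cDC2, at 371 ± 37.5 and 1399.9 ± 287 CPM, against 64.0 ± 19.3 and 329 ± 64.6 in cDC1 and 60.0 ± 35.6 and 175 ± 126 in pDC. Within each subset the macrophage markers, like Csf1r and Lyz2, were lowest in replicate 2. Their sums were 224, 107 and 184 CPM in cDC2, 126, 76.6 and 92.1 in cDC1 and 95.7, 18.2 and 117 in pDC. Unlike Csf1r and Lyz2, the sums of cDC1 and cDC2 overlapped, with Vcam1 at a mean of 72.6 CPM in cDC1 and 67.9 CPM in cDC2. Csf1r was at 401, 329 and 383 CPM in the cDC2 libraries and at 70.4, 20.4 and 89.1 CPM in those of pDC. The part of the macrophage markers was not tested. Zbtb7b, the CD4 lineage factor ThPOK, was lower in pDC than in cDC1 by a log2 fold change of -0.89. The differences of pDC from either cDC subset passed for Cd4 and Spi1 (edgeR adjusted p at most 2.93e-06).

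**Figure D5:**
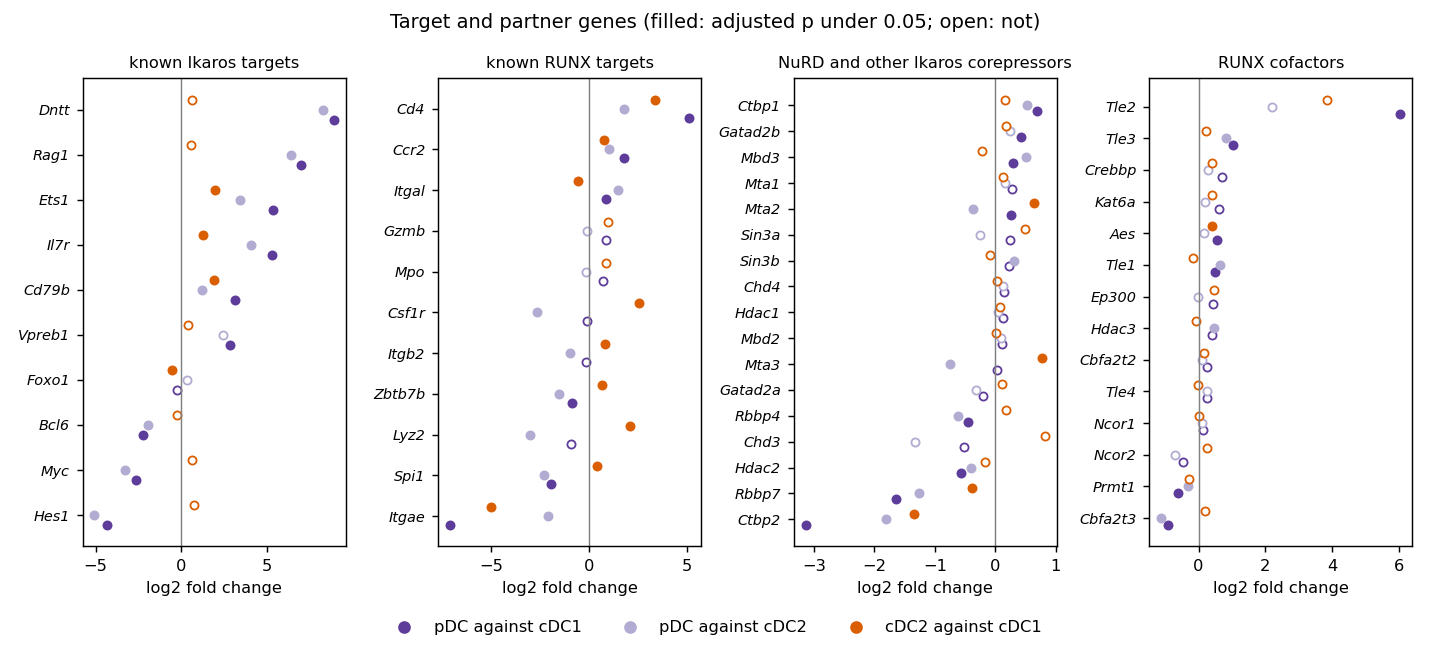
Log2 fold change (horizontal axes) of the tested Ikaros targets, RUNX targets, Ikaros corepressors and RUNX cofactors (1 gene per line) in the 3 comparisons, without 1 RUNX target that is not reported here. Filled points passed an adjusted p of 0.05. The target genes spread widely, from Dntt at 8.88 to Itgae at -7.09 in pDC against cDC1, whereas most corepressors and cofactors lie near 0.

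For each of the 8 genes, the 2 genes of most similar pattern were sought by Pearson's r of log2(CPM + 1) over the 9 libraries, among 8842 genes, as a description. The 9 libraries fall into 3 subsets and 3 sorts, which all genes share. Runx2 was followed most closely by Rell1 (r = 0.999), at 580.1 CPM in pDC, 38.9 in cDC2 and 26.2 in cDC1, and by Peli2 (r = 0.999), at 80.4, 2.01 and 0.786 CPM. Runx3 was followed by Apbb1ip (r = 0.991) and the kinase gene Tec (r = 0.981), both highest in cDC2 and lowest in cDC1. Ikzf1 was followed by Ifi203 (r = 0.993) and Cerk (r = 0.992), Ikzf3 by Kynu (r = 0.986) and B4galt5 (r = 0.981), and Ikzf2 by D6Wsu163e (r = 0.984) and Ptgr2 (r = 0.974). Cbfb was followed by Ptbp3 (r = 0.992) and Dck (r = 0.989), which were likewise lowest in pDC. The 2 genes with no call in any comparison had the lowest values, with Cpsf6 (r = 0.939) and Grsf1 (r = 0.931) for Runx1 and Prkrir (r = 0.890) and Spopl (r = 0.826) for Ikzf5.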

How the data were processed

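The authors deposited raw read counts per gene for 9 libraries (TruSeq Stranded mRNA, 1 end of 75 bases) in 1 table, of which all 9 columns were used. The submitters' processing notes name STAR, SAMtools, featureCounts and MultiQC and the build mm10. Versions, annotation and strand setting are not given in the sources used here. The study's methods name Degust without a statistical method.

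Counts were filtered with filterByExpr (minimum count 10), scaled by TMM and fitted over all 9 libraries with the subset as the only term (edgeR 4.0.16 in R 4.3.3, quasi-likelihood test). Adjustment was by Benjamini-Hochberg over 13819 genes, with a threshold of 0.05. As replicates are separate pools, p-values of this fit measure the spread between pools, which includes differences that the subsets of a sort share. Replicates differed by more than sampling noise (chi-square per degree of freedom 10.6 to 67.7 over genes).

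Same-numbered libraries were taken as paired in the replicate block and the ratios within sorts, because their descriptions carry the same date code. The fits behind all other p-values left the pairing out. All 9 same-numbered pairs deviated together (r from 0.266 to 0.543). GENCODE M21 (GRCm38) gave exon lengths and positions and has a transcript for 95.99% of the genes. Exons of Runx2 share 5.13% and of Ikzf5 79.7% of their 75-base windows with other genes.

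The 8 genes and all lists were chosen with earlier results of these data known. Named genes were the 8, the 2 most similar genes of each with a mean of at least 10 CPM, and, per list and comparison, up to 3 called genes in each direction by size of change provided that the higher group averaged 50 counts or more. Alternatives were the replicate block, DESeq2 1.42.0, limma-voom (limma 3.58.1), library size only, upper quartile factors, no filter, a minimum of 10 counts in every library, only the 6 libraries compared, other gene lengths, and each library left out. Leaving out the third sort was added after the data were seen. The test was tried on simulated data. Single values of some listed genes are not reported here. Figures were drawn with matplotlib 3.10.9 in Python 3.11.15.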

Additional observations from a re-analysis of the deposited data

How the results depend on the processing

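Over the 24 fold changes of the 8 genes (3 comparisons each) and 18 alternatives, 401 of 432 values kept both direction and side of the threshold, 7 lost the call, 13 gained it and 11 turned direction. Every one of the 11 came from a difference that did not pass. For Ikzf5 in pDC against cDC1 the value was -0.0087 with upper quartile factors, and with libraries left out it ranged from -0.0945 to 0.11. For Runx1 it ranged from -0.48 to 0.0522 in pDC against cDC2 and from -0.24 to 0.0682 in cDC2 against cDC1 with libraries left out, and was 0.0636 in the latter with library size only. Ikzf2 in cDC2 against cDC1 ranged from -0.0520 to 1.46 in the same way. The number of the 8 genes called in pDC against cDC2 was 3 to 5 with libraries left out.

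The replicate block gave 8094 calls over all genes in pDC against cDC1, 7663 in pDC against cDC2 and 4916 in cDC2 against cDC1, and among the 8 genes it changed only the calls of Cbfb and Ikzf1 given above. The third sort left out gave 5356 calls in cDC2 against cDC1, in place of 3370. With library size only, under which the median of all genes was 0.11 in pDC against cDC1 and 0.14 in cDC2 against cDC1 in place of 0.02 and 0.03, the latter comparison had 2204 genes higher and 1287 lower, in place of 1760 and 1610. Cbfb in pDC against cDC1 was called in 7 of the 18 alternatives. Without division by length, Runx2 made up 12.03% of the RUNX sum in cDC1, 12.9% in cDC2 and 80.8% in pDC, and Ikzf1 95.01% of the Ikaros sum in cDC2 and 91.6% in pDC. With the longest transcript as length, Ikzf1 made up 93.1%, 94.5% and 91.3% in cDC1, cDC2 and pDC. The causes were not tested. With 3 libraries a group, depth limits the low genes most, Ikzf2 having 16 to 76 counts per cDC library.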
